A study of Mus musculus with 10 samples.

Results

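Open chromatin regions (OCRs) that were more accessible in group 2 innate lymphoid cells (ILC2s) of the lung and pancreas than in ILC2s of the small intestine (SI), large intestine (LI) and bone marrow (BM) were chosen by a rule on the ATAC-seq counts. ATAC-seq cuts accessible DNA with a transposase, and the count of a region is the number of reads that fall in it. Each library was divided by its median-of-ratios size factor, 1 was added, and the log2 was taken. A region was kept where the lowest of the 4 lung and pancreas libraries was at least 0.1 above the highest of the 6 BM, LI and SI libraries, and that gap is called the margin. The rule kept 1059 of 50039 regions, or 2.12%. Because the members were selected on lung and pancreas against the other 3 tissues, every difference between those sides is given as a description and was not tested.

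The series held 10 libraries, 2 for each of 5 tissues, all from wild-type male C57BL/6 mice aged 6 weeks. Each library came from 50000 sorted cells of pooled mice, 10 in the intestinal tissues and 16 in the others, so it averages over animals. Lung, pancreas and LI ILC2s were sorted as lineage-negative CD45+CD127+ST2+CD25+ cells, BM ILC2s as lineage-negative ST2+CD25+ cells on another sorter, and SI ILC2s as lineage-negative CD45+CD127+KLRG1+ cells with intermediate Thy1. ST2 was therefore part of the gate in every tissue except SI. Lung, pancreas and LI shared a gate, while for BM and SI gate and tissue cannot be told apart. The study's methods call the libraries of a tissue biological duplicates, and p-values measure the spread between them.

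Total counts ran from 10282987 to 32797872 per library, and the counts fell in regions 500 to 2112 bp wide. The strongest single region took 1.78% to 9.0% of a library's counts. Of 12 ILC2 marker genes, 11 had a region at a promoter, and their summed normalised counts lay between 5429 and 8472 in every library. Of 57 genes that mark other cell types, 11 had a promoter region. Fibroblast genes, 1 of 4 with one (*Pdgfra*), summed to 242 to 357 in lung and pancreas and to 224 to 348 elsewhere. T cell genes, 3 of 6 with one, summed to 176 to 275 in lung and pancreas and to 117 to 274 elsewhere. The B cell genes, 1 of 5 with one, summed to 27.9 to 63.0 in lung and pancreas, 36.3 to 81.4 in BM and LI, and 170 and 132 in SI. Macrophage and monocyte genes, 2 of 6 with one, summed to 237 to 313 in lung and pancreas, 219 to 358 in BM and LI, and 495 and 377 in SI, and their part in the values of SI was not tested. The 4 globin and glycophorin genes of red cells summed to 889 and 468 in the BM libraries against 126 to 242 elsewhere. No region of these red cell genes was a member.

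ILC2s live in tissues and answer alarm signals such as IL-33, which binds the receptor ST2, with IL-5, IL-13 and amphiregulin. They also sense lipid mediators and neuropeptides, and they are shaped by the organ in which they settle. Accessible regions mark promoters and distal elements where transcription factors can bind DNA, and ILC2s are known to depend on GATA3. AP-1 factors are induced by activation in many lymphocytes, and SMAD factors carry signals of TGF-beta.

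Sequences of 7 members are shown because they include the largest margin, the locus with the most members, and matches to the AP-1 and GATA motifs that the members held more often than other regions. Each is the central 300 bp, read from the plus strand of mm10 (GRCm38), with AP-1 matches (TGANTCA) and GATA matches (AGATAA, on either strand) in capitals. The first, upstream of *Ptges*, is chr2:30927302-30927601. The others are chr15:58171369-58171668 near *Wdyhv1*, chr7:37438003-37438302 upstream of *4930505M18Rik*, 3 regions at *Il1rl1* and chr6:116439716-116440015 in intron 3 of *Alox5*. The *Il1rl1* regions are chr1:40425436-40425735 upstream of the gene, chr1:40439423-40439722 at its second start site and chr1:40448370-40448669 in intron 8.
Ptges: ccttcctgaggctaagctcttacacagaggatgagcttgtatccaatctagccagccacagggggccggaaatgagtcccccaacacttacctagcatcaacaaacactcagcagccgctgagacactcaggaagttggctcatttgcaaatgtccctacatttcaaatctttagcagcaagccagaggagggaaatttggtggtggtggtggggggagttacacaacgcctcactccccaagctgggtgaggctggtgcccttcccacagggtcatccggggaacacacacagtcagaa
Wdyhv1: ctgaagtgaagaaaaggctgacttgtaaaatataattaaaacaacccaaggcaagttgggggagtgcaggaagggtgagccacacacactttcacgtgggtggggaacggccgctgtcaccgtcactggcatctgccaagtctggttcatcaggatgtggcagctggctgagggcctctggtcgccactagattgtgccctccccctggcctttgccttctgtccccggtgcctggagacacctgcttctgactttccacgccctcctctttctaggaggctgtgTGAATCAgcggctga
4930505M18Rik: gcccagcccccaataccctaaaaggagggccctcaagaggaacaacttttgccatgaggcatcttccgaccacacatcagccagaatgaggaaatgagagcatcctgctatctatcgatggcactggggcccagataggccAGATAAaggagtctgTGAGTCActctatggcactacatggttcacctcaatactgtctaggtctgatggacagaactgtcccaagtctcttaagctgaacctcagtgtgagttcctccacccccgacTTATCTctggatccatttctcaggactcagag
Il1rl1, upstream: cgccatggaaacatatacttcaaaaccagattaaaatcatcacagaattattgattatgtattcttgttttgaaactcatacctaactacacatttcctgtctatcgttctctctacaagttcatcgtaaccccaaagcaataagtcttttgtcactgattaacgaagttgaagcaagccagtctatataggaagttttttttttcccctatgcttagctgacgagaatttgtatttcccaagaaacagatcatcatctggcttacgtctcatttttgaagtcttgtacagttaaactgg
Il1rl1, second start site: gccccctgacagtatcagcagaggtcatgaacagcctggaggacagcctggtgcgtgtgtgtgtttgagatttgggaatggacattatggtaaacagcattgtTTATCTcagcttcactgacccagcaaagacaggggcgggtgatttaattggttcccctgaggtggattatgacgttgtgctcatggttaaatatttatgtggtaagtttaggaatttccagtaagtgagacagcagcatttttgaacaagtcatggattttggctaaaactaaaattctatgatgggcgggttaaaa
Il1rl1, intron 8: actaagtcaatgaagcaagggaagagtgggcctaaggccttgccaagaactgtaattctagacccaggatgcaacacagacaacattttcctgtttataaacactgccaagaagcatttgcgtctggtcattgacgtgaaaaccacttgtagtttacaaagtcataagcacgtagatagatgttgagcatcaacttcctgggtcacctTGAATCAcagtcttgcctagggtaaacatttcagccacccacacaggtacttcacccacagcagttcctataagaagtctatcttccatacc
Alox5: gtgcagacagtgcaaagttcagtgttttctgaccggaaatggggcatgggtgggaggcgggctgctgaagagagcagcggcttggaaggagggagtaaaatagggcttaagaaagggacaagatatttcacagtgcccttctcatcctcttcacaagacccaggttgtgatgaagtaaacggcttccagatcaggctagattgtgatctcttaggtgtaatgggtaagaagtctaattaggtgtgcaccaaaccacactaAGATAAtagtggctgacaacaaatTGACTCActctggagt

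No match to either motif lay in the *Ptges* window or in the upstream *Il1rl1* window. The window upstream of *4930505M18Rik* held 1 AP-1 and 2 GATA matches, and that of *Alox5* held 1 of each. A match describes the letters in the window and says nothing of binding.

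Members held between 1.61% and 2.06% of all counts in the lung and pancreas libraries and between 0.691% and 1.09% in the other 6. Their median normalised count was 196 and 212 in the lung libraries and 212 and 216 in the pancreas libraries. It was 107 and 108 in LI, 74.7 and 82.8 in BM, and 69.1 and 64.4 in SI. The median over all regions lay between 128 and 153 in every library. Lung and pancreas thus sat above the level of an ordinary region and the other 3 tissues below it.

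**Figure D1:**
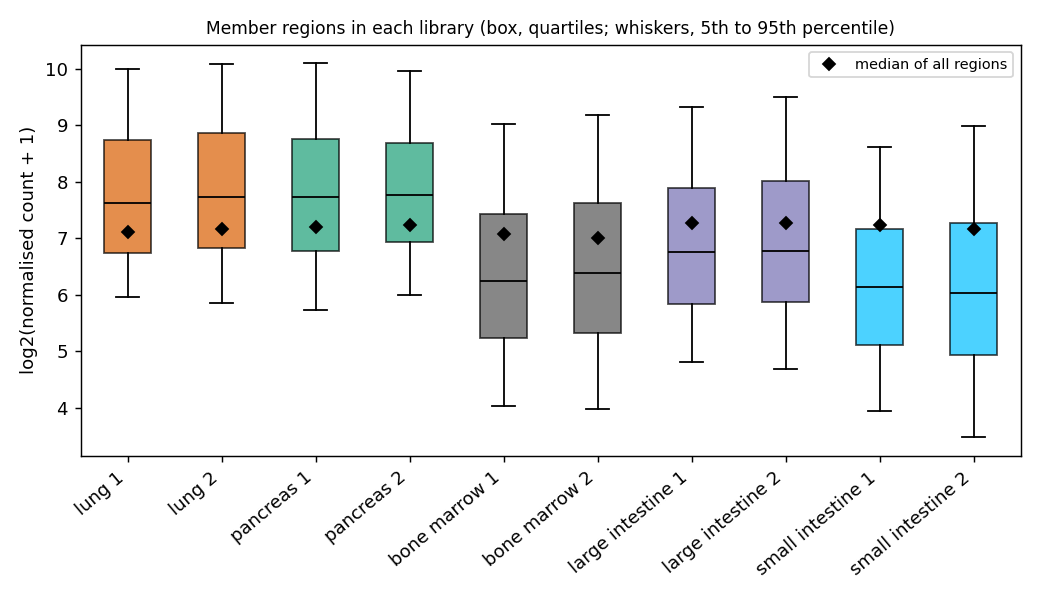
Normalised counts of the 1059 members in each library, as log2(normalised count + 1). Boxes give quartiles, whiskers the 5th and 95th percentiles and diamonds the median of all regions, and the members' medians were 196 to 216 in lung and pancreas against 64.4 to 108 elsewhere, a difference the rule selected.

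Most members cleared the rule by little. The median margin was 0.27 and the largest 1.60 on the log2 scale, with 231 members at 0.5 or more and 38 at 1 or more. On average over replicates, lung and pancreas lay above LI by a median of 0.81, above BM by 1.19 and above SI by 1.54 (log2). Just inside the margin of 0.1 were regions nearest to *Dip2a*, *Cish* and *Capzb*, and among those just outside it were regions nearest to *Ddx11* and *Nr4a2*. The *Capzb* region held normalised counts of 617 and 614 in lung, 735 and 580 in pancreas, 438 and 451 in BM, 466 and 541 in LI, and 367 and 474 in SI. The *Nr4a2* region held 1094 and 1013 in lung, 991 and 861 in pancreas, 607 and 804 in BM, 729 and 776 in LI, and 601 and 451 in SI. Neither region's lung and pancreas values overlapped those of the other tissues, so the margin separated regions of much the same shape.

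To see how far the choice carried over to libraries it had not used, the rule was applied to replicate 1 alone and read in replicate 2, and the reverse. Of 4282 regions chosen in replicate 1, 40.4% had lung and pancreas as the top tissues in replicate 2, against 9.59% of all regions. Of 3436 chosen in replicate 2, 48.3% did so in replicate 1, against 12.1% of all regions. The same rule applied to the other pairs of tissues kept 1889 regions for LI with SI and 1444 for pancreas with LI, and fewer than 1059 for each of the remaining 7 pairs. Lung, pancreas and LI shared a gate, and of their pairs pancreas with LI gave 1444 regions and lung with LI 326. The part of the gate in these counts was not tested. The count of 1059 became 1647 without LI replicate 2, which set the upper bound at 403 members. By construction, leaving out a library can only add regions, so it cannot show that a member fails.

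Members lay away from promoters. Of them, 58 or 5.48% (95% Wilson interval 4.26% to 7.02%), were centred at a promoter (no more than 1000 bp before or 100 bp after a start site), against 19.2% of all regions. Inside genes lay 594 members (56.1%, against 48.1% of all regions), 550 of them in introns, and 407 were intergenic (38.4%, against 32.7%). The median distance to the nearest start site was 18155 bp for members and 10412 bp for all regions. Outside promoters these medians were 19508 and 16293 bp. The median GC content was 47.6% for members and 49.8% for all regions, and 47.3% and 48.1% outside promoters.

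The members were nearest to 768 genes, 582 of which had 1 member. Another member lay within 50000 bp of 44.9% of members, while a member lay within that distance of 11.2% of all regions. Neighbouring regions of one locus are not independent of each other, so the count of loci is smaller than that of regions.

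The 12 members of largest margin were nearest to genes of different function, at 1.06 to 510 kb from a start site. First came the region 24.2 kb upstream of *Ptges*, which encodes the prostaglandin E synthase that makes prostaglandin E2. Its normalised counts were 309 and 280 in lung and 237 and 229 in pancreas, against 41.7 and 16.7 in BM, 74.6 and 74.7 in LI, and 44.1 and 16.3 in SI. The region 55.8 kb upstream of *Csrp1*, a LIM-domain protein of the cytoskeleton, was far stronger. It reached 1142 and 1229 in lung and 1436 and 1069 in pancreas, against 145 and 281 in BM, 373 and 301 in LI, and 90.2 and 39.3 in SI.

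In *Chmp6*, which encodes a subunit of the ESCRT-III membrane complex, the member in intron 4 held 296 and 348 in lung and 174 and 162 in pancreas, and no more than 56.3 in any other library. Lung was the higher of the pair here, but the difference did not pass the test (log2 fold change 0.94, SE 0.29, edgeR adjusted p = 0.0726). The member 30.2 kb from *Wdyhv1*, the gene of an amidase acting on N-terminal glutamine, held 459 and 440 in lung, 272 and 321 in pancreas and 31.7 to 95.3 elsewhere. The member in intron 2 of *Dop1b* held 115 and 201 in lung, 151 and 284 in pancreas and 6.79 to 44.1 elsewhere. In each of these 3 the lowest lung or pancreas library was well clear of the highest of the others.

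Among the rest of the 12, the region 232 kb upstream of *4930505M18Rik* was the strongest, with 1363 and 1283 in lung, 1292 and 1077 in pancreas, 209 and 231 in BM, 414 and 441 in LI, and 73.9 and 57.7 in SI. It lies in the stretch that also holds *Zfp536*, a zinc finger gene. The member 1.06 kb upstream of *Zcchc14*, a zinc finger protein gene, held 496 and 561 in lung, 368 and 313 in pancreas and 33.9 to 130 elsewhere. The remaining 5 were nearest to *Fhl2* (a LIM-only protein), *Impa2* (an inositol monophosphatase), *Nlrc3* (an NLR family protein), *Cdk5rap2* (a centrosome protein) and *4930465M20Rik*, with margins of 1.25 to 1.35. None of the 12 differed between lung and pancreas at adjusted p under 0.05, beside 1.62% of all regions higher in lung and 4.2% higher in pancreas.

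**Figure D2:**
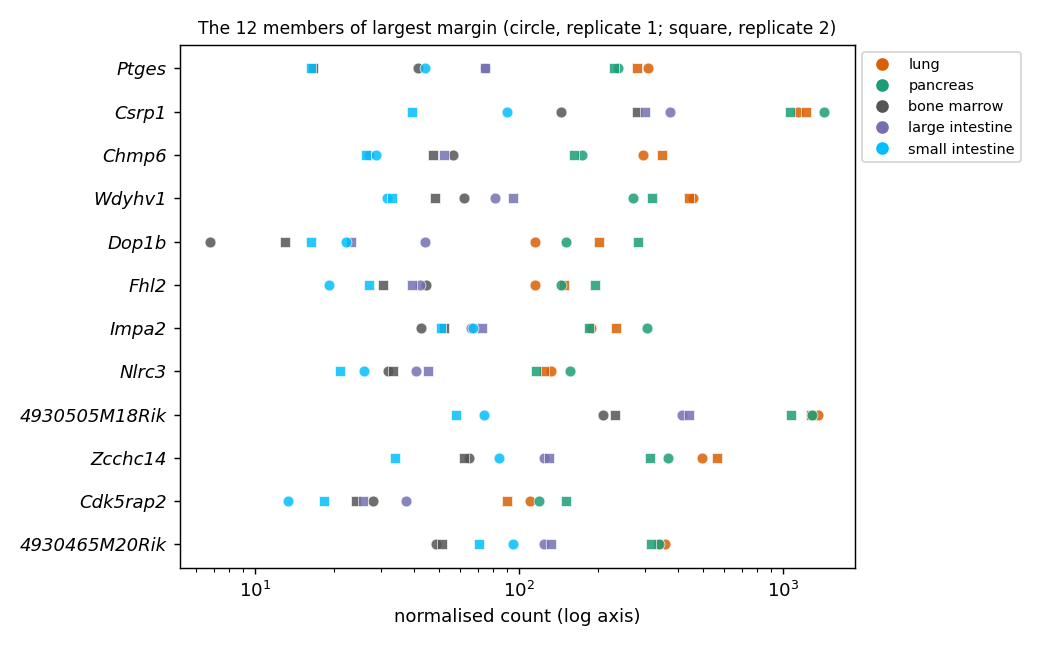
Normalised counts in each of the 10 libraries, on a log axis, for the 12 members of largest margin, named by the nearest gene. The lung and pancreas points of every row lie to the right of all BM, LI and SI points, as the rule requires, and *Csrp1* and *4930505M18Rik* hold the highest counts.

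The largest group of neighbouring members lay at the genes of the IL-33 and IL-18 receptors. A stretch of chromosome 1 from 40380959 to 40529870 held 31 regions, of which 14 were members, over *Il1rl1* (ST2, the receptor of IL-33), *Il18r1* and *Il18rap* (the chains of the IL-18 receptor). *Il1rl1* was nearest to 11 members of its 19 regions, more than any other gene. Summed over the 14 members, normalised counts were 5431 and 7502 in lung, 6865 and 6139 in pancreas, 2792 and 2840 in BM, 3132 and 3906 in LI, and 1033 and 1388 in SI. Over the 17 other regions of the stretch they were 5420 and 6874 in lung, 7426 and 5899 in pancreas, 5271 and 4917 in BM, 3850 and 5459 in LI, and 2356 and 3074 in SI.

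The *Il1rl1* member of largest margin lay 3.98 kb upstream of the first curated start site (printed above). It held 191 and 247 in lung, 279 and 246 in pancreas, 53.4 and 37.2 in BM, 69.5 and 83.2 in LI, and 10.6 and 19.7 in SI. In intron 8, whose window holds an AP-1 match, the counts were 289 and 471 in lung, 427 and 332 in pancreas, 29.1 and 21.4 in BM, 103 and 154 in LI, and 12.5 and 9.5 in SI. BM and SI were both lowest at this region, and LI stood between them and the high pair.

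*Il1rl1* has 2 curated start sites, and their promoters differed. At the second one the member held 185 and 247 in lung, 302 and 267 in pancreas, 84.4 and 76.3 in BM, 91.5 and 97.8 in LI, and 33.6 and 10.2 in SI. The region at the first start site was not a member, since BM with 447 and 263 overlapped lung with 302 and 477 and pancreas with 544 and 296. There LI held 110 and 146 and SI held 56.6 and 59.0. The difference between the start sites was read from the values and was not tested.

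Within the locus, the tests that the rule did not use separated the lower tissues. Of the 14 members, 12 were higher in LI than in SI, beside 6.9% of all regions, 13 were higher in BM than in SI, beside 10.7%, and 4 were higher in LI than in BM, beside 18.3% (edgeR quasi-likelihood test, adjusted p under 0.05 over all regions). Of the 17 other regions, 7 were higher in LI than in SI and 8 were higher in BM than in SI. None of the 31 was higher in SI than in LI or BM, beside 1.53% and 15.1% of all regions. Between LI and BM, 3 of the 17 were higher in LI and 3 in BM, beside 18.3% and 12.6%. Between lung and pancreas 1 of the 17 was higher in each, beside 1.62% and 4.2% of all regions. No member of the locus differed between lung and pancreas at that threshold, which does not show that the 2 tissues were alike there. SI ILC2s were the cells not gated on ST2, and the part of the gate in these values was not tested.

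**Figure D3:**
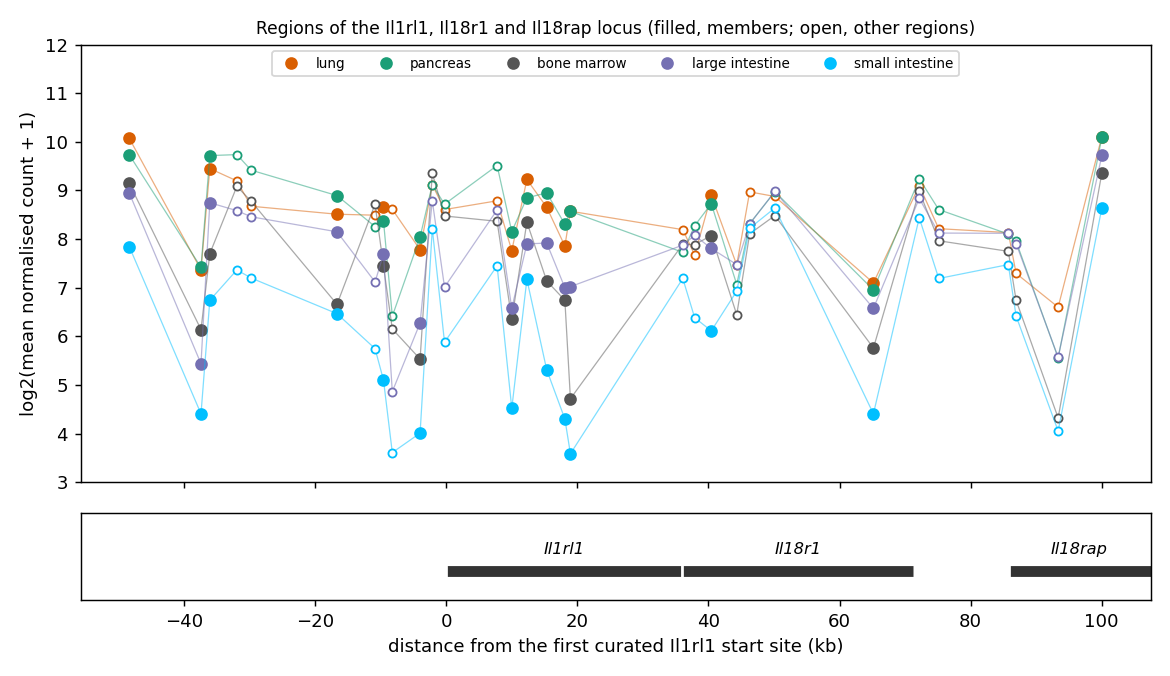
Mean normalised count of each tissue (n = 2), as log2(mean + 1), for the 31 regions of the locus by distance from the first curated *Il1rl1* start site, with gene bodies below. Filled points are the 14 members and open points the 17 other regions. Lung and pancreas lie highest at the members and SI lowest, and BM reaches the high pair at several open points.

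Other genes had several members each. *Itpr1*, the calcium channel of the endoplasmic reticulum opened by inositol trisphosphate, had 8 members of 14 regions, all in its introns. The one of largest margin held 997 and 980 in lung, 1304 and 1042 in pancreas, 115 and 210 in BM, 349 and 455 in LI, and 160 and 149 in SI. Of the 8, 6 were higher in LI than in BM, beside 18.3% of all regions, and 1 was higher in pancreas than in lung, beside 4.2%. Against SI, 2 were higher in LI, beside 6.9% of all regions, and 2 were lower in BM, beside 15.1%.

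*Igfbp7*, a secreted protein related to the insulin-like growth factor binding proteins, had 7 members of 7 regions. Its leading member, in intron 2, held 358 and 228 in lung, 396 and 452 in pancreas and 16.3 to 107 elsewhere. *Mbp*, the myelin basic protein gene, whose longer transcripts are also made in immune cells, had 7 of 28, with margins of 0.14 to 0.81. *Zcchc14* had 6 of 9, with margins of 0.30 to 1.27, and these were the only regions in their stretch of 42388 bp.

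*Rbpj*, the DNA-binding partner of Notch, had 6 members of 26 regions, *Adgrf5*, an adhesion G protein-coupled receptor, had 5 of 8, and *Fhl2* had 5 of 15. Higher in lung than in pancreas at adjusted p under 0.05 (edgeR) were 1 *Rbpj* and 1 *Adgrf5* member, beside 1.62% of all regions. No other member near these genes was called in either direction, beside 4.2% of all regions higher in pancreas. The region 46.2 kb upstream of *Rbpj* held 337 and 439 in lung and 125 and 134 in pancreas, against 39.8 to 93.2 elsewhere. The *Adgrf5* promoter region held 459 and 447 in lung and 184 and 218 in pancreas, against 31.9 to 102 elsewhere. Both passed the test for lung over pancreas, with log2 fold changes of 1.58 (SE 0.28) and 1.17 (SE 0.27, edgeR adjusted p = 0.0039 and 0.0174).

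*Alox5* encodes 5-lipoxygenase, which begins the synthesis of leukotrienes, and had 5 members of 10 regions, all intronic. At the region whose sequence is printed above, lung held 210 and 209, pancreas 477 and 569, BM 107 and 150, LI 67.8 and 77.2, and SI 84.4 and 65.1. Pancreas was higher than lung there (log2 fold change of lung over pancreas -1.32, SE 0.25, edgeR adjusted p = 0.00655). At a second intron 3 region pancreas held 176 and 300 against 46.3 and 59.0 in lung, and lung lay only just above the 16.3 to 37.8 of the other tissues.

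Counts of members near genes of fixed lists were set beside the share of members among all regions, 2.12%. The IL-33, IL-18 and IL-1 receptor list of 10 genes had 14 members among 64 regions (21.9%), all in the locus above, and 7 of its genes had none. The leukotriene and prostaglandin list had 7 of 92 (7.61%), all near *Alox5* and *Ptges*. The list of neuropeptide and adrenergic receptors had 5 of 70 (7.14%), all near *Ramp1*, a subunit of the receptor for calcitonin gene-related peptide. The leading *Ramp1* member, in intron 1, held 256 and 304 in lung, 269 and 210 in pancreas, 85.4 and 115 in BM, 137 and 101 in LI, and 41.3 and 37.3 in SI. All 5 *Ramp1* members were higher in LI than in SI at adjusted p under 0.05, beside 6.9% of all regions. Of these 5, 4 were higher in BM than in SI, beside 10.7%, and 1 was higher in LI than in BM, beside 18.3%. Each of these lists thus rested on 1 or 2 loci.

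Of the galectin, S100 and annexin genes, 5 of 68 regions were members (7.35%), near *S100a4*, *S100a11*, *S100a6* and *S100a3*, genes of calcium-binding proteins on chromosome 3. Of these members, 4 lay in 1 stretch of 25601 bp. No galectin or annexin gene of the list was nearest to a member. The region at the *S100a4* promoter held 238 and 254 in lung, 264 and 284 in pancreas, 154 and 116 in BM, 168 and 160 in LI, and 104 and 111 in SI. TGF-beta receptors and SMADs had 8 of 149 (5.37%). Of these, 3 were near *Smad3*, which carries the signal of the TGF-beta receptor, 2 near *Ski*, and 1 each near *Tgfbr2*, *Tgfb1* and *Acvr1b*. The leading *Smad3* member held 839 and 915 in lung, 985 and 846 in pancreas, 330 and 448 in BM, 459 and 471 in LI, and 197 and 362 in SI.

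Costimulatory and checkpoint genes had 8 of 165 regions (4.85%), 3 of them near *Tnfsf8*, the ligand of CD30. Its leading member held 395 and 390 in lung, 557 and 519 in pancreas, 31.1 and 69.8 in BM, 98.3 and 191 in LI, and 71.0 and 97.0 in SI. All 3 *Tnfsf8* members were higher in LI than in BM, beside 18.3% of all regions, and 2 were higher in SI than in BM, beside 15.1%. At the *Pdcd1* member, in the gene of the inhibitory receptor PD-1, lung held 543 and 919 and pancreas 272 and 332, and lung was the higher (log2 fold change 1.28, SE 0.32, edgeR adjusted p = 0.026). Type 2 cytokines and effectors had 4 of 96 (4.17%), near *Arg1* (arginase) and *Bmp7* (a secreted growth factor), and none near the genes of IL-4, IL-5 or IL-13.

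ILC2 transcription factors had 10 of 427 regions (2.34%), near *Bach2*, *Bcl11b*, *Runx2*, *Id2*, *Tcf7*, *Ikzf1* and *Ets1*, and none near *Gata3*. The common gamma chain, IL-25 and TSLP receptors had 2 of 70 (2.86%), 1 at the promoter of *Il2rb*, a chain of the IL-2 receptor, and 1 upstream of *Il2ra*, which encodes CD25, a marker of the gate in every tissue except SI. The *Il2rb* promoter held 1174 and 1206 in lung, 1326 and 1187 in pancreas, 422 and 626 in BM, 710 and 848 in LI, and 410 and 615 in SI. The shares were 3.48% for chemokine receptors (4 of 115), 3.41% for the AP-1 family (3 of 88), 3.68% for KLF, Nr4a and Egr factors (5 of 136) and 3.61% for the interferon and STAT pathway (7 of 194). They were 5.38% for actin, cytoskeleton and extracellular matrix genes (5 of 93), 1.98% for integrins and residency genes (4 of 202), 1.5% for the NF-kappaB pathway (2 of 133) and 1.03% for lipid uptake and storage (1 of 97). Genes that mark other cell types had 2 of 105 regions (1.9%), and the one nearest to *Scgb1a1* lies inside *Ahnak*.

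Lists that the study drew from its own single-cell RNA data on ILC2s of these organs were also read, and they are not independent evidence of a direction. The genes lower in intestinal ILC2s had 39 member regions of 334 (11.7%), with 11 near *Il1rl1*, 5 near *Alox5* and 5 near *Ramp1*. The pancreas-specific list had 16 of 174 (9.2%) and the lung-specific list 10 of 174 (5.75%). Of the 16 pancreas-list members, 4 were higher in pancreas than in lung, beside 4.2% of all regions, and none was higher in lung, beside 1.62%. None of the 10 lung-list members passed adjusted p under 0.05 in either direction, which does not show that they were alike.

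Promoter members were few and mostly weak in margin. The promoter of largest margin lay at *Mcts2* (margin 1.03), ahead of those at *Il1rl1* and *Adgrf5* given above, and *Gm14936*, *Fam124a* and *Shld1* came next. The *Mcts2* region, inside intron 4 of *H13*, held 152 and 194 in lung, 160 and 166 in pancreas, 29.1 and 19.5 in BM, 69.5 and 59.2 in LI, and 73.9 and 69.9 in SI. At *Ccl1*, which encodes a chemokine, the promoter held 692 and 690 in lung, 474 and 494 in pancreas and 204 to 372 elsewhere.

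The rule did not order lung against pancreas, so that contrast was tested, although asking both tissues to be high leaves less room for a difference. Of the members, 13 (1.23%) were higher in lung, beside 1.62% of all 49981 regions tested, and 16 (1.51%) were higher in pancreas, beside 4.2% (edgeR quasi-likelihood test on all 10 libraries, adjusted p under 0.05). The absolute log2 fold change had a median of 0.24 over members and 0.33 over all regions, and it was under 1 in 1025 members. In a fit on the 4 libraries compared, 46 members (4.34%, beside 4.18% of all regions) were higher in lung and 52 (4.91%, beside 7.82%) in pancreas. On total counts alone, where the median of all regions in lung over pancreas was 0.24 in place of -0.01 (log2), 33 members were higher in lung and 9 in pancreas. The counts for lung and for pancreas were 8 and 3 without lung replicate 1, 0 and 0 without lung replicate 2, 2 and 6 without pancreas replicate 1, and 2 and 1 without pancreas replicate 2. The counts rose when either SI library was left out, although SI enters this contrast only through the shared scaling and estimate of spread. Each such fit leaves 1 library in a tissue, and its shares of all regions are not given. The number called thus varied with the libraries fitted, and the cause was not tested.

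Among the members higher in lung, the largest fold changes lay near *Prox1*, *ccdc198*, *B430319G15Rik*, *Rbpj* and *Ptprs*. The region 102 kb from *Prox1*, a homeobox gene, held 111 and 163 in lung and 33.3 and 42.0 in pancreas, against 5.76 to 23.7 elsewhere (log2 fold change 1.87, SE 0.49, edgeR adjusted p = 0.0342). Among those higher in pancreas they lay near *Stc2*, *Alox5*, *Elp3*, *1700020N01Rik* and *Gm20125*. The region 11.8 kb from *Stc2*, which encodes the secreted glycoprotein stanniocalcin, held 208 and 242 in pancreas and 51.7 and 41.0 in lung, against 5.43 to 25.4 elsewhere (log2 fold change of lung over pancreas -2.28, SE 0.43, edgeR adjusted p = 0.00637). The region 76.6 kb from *Elp3*, a subunit of the Elongator complex, held 393 and 353 in pancreas, 118 and 98.9 in lung and 17.6 to 54.9 elsewhere. These regions were members, yet one tissue of the pair carried most of the signal.

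The rule treated BM, LI and SI alike, and the members' order among them was read next, with the limit that the same libraries set the upper bound of the rule. LI was the next highest tissue at 699 members (66.0%, against 31.0% of all regions), BM at 273 and SI at 87. SI was the lowest at 632 members (59.7%, against 29.2% of all regions).

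The differences among these tissues were then tested. Higher in LI than in SI were 283 members (26.7%), beside 6.9% of all regions, and higher in SI than in LI were none, beside 1.53% (edgeR, with 1 member at an unadjusted p under 0.05, and none with DESeq2). LI exceeded BM at 286 members (27.0%, beside 18.3%) and BM exceeded LI at 20 (1.89%, beside 12.6%). BM exceeded SI at 207 (19.5%, beside 10.7%) and SI exceeded BM at 82 (7.74%, beside 15.1%). In fits on the 4 libraries compared, LI over SI fell to 123 members (11.6%, beside 2.84%) and SI over BM to 52 (4.91%, beside 12.4%). Leaving out 1 library moved some counts by more than 1.5 times. Such a fit leaves 1 library in that tissue, and its share of all regions is not given. BM over LI fell to 9 without either BM library and to 13 or 12 without LI replicate 1 or 2. LI over BM fell to 172 without BM replicate 1 and 190 without LI replicate 2, and LI over SI to 171 without LI replicate 2. BM over SI fell to 137 without BM replicate 2, and SI over BM to 50 without BM replicate 1. On total counts alone BM over SI and SI over BM became 152 and 110 and LI over SI 207, where the median of all regions was -0.20 for BM over SI and -0.26 for LI over SI (log2). The median log2 fold change over members was 0.67 for LI over SI, 0.34 for LI over BM and 0.21 for BM over SI, while over all regions, with TMM scaling, it lay between -0.02 and 0.02. LI shared its gate with lung and pancreas, and the part of the gate in this order was not tested.

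**Figure D4:**
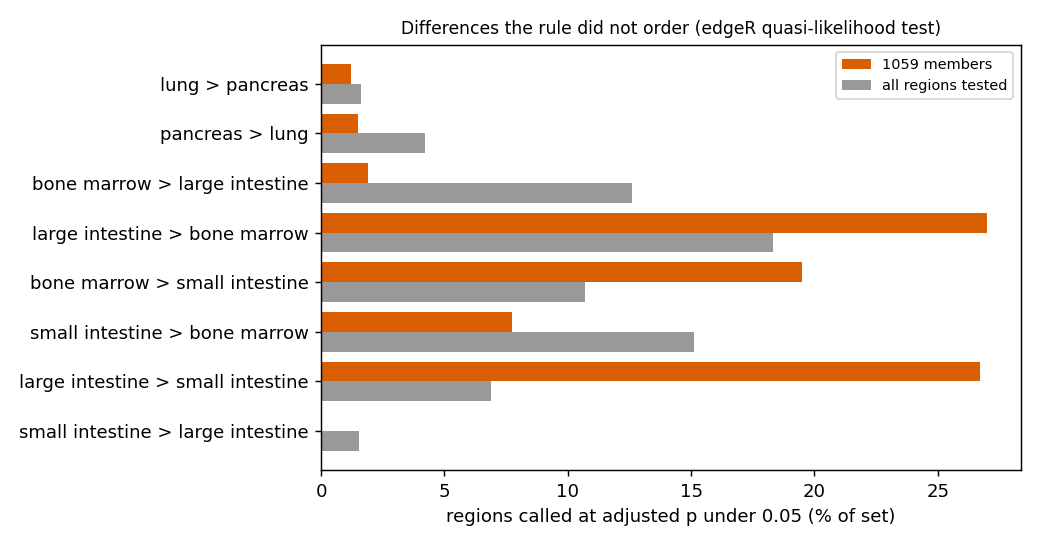
Share of the 1059 members and of the 49981 regions tested that were called at an adjusted p under 0.05 (edgeR quasi-likelihood test) in each direction of 4 contrasts that the rule did not order. Members exceed all regions for LI over SI, LI over BM and BM over SI, and fall below them in the other 5 directions.

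Short motifs were searched on both strands in the central 300 bp of every region, and the shares were compared outside promoters, over 1001 members and 40408 regions. The AP-1 motif was held by 32.3% of members and 21.2% of all regions, GATA by 28.9% and 20.0%, and the SMAD motif TGTCTG by 36.8% and 28.0%. The next were the ETS motif AGGAAGT (22.0% and 16.3%), the NFAT motif TGGAAA (27.6% and 22.1%) and the NF-kappaB motif GGNNTTTCC (12.6% and 8.6%). The RUNX motif TGTGGTT differed little (16.9% and 15.1%). Matches of different motifs can overlap in a region, and long regions are not favoured since the window is fixed.

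Shares lower in members were those of CTCF (3.0% and 7.03%), IRF (2.3% and 4.7%) and the E-box CAGGTG (18.3% and 21.8%). Of 29 motifs, 15 were held by a larger and 14 by a smaller share of members than of all regions. Among regions with a GC content of 40 to 50% in the window (547 members, 18761 regions), AP-1 was held by 35.5% of members and 25.7% of regions, and GATA by 36.6% and 26.1%. Both motifs together lay in 8.59% of members and 4.75% of all regions outside promoters, and neither lay in 47.5% and 63.6%. Among the 231 members with a margin of at least 0.5, promoters included, the AP-1 share was 32.5% and the GATA share 33.3%, against 31.4% and 28.0% of all members. These shares are descriptions without a test.

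**Figure D5:**
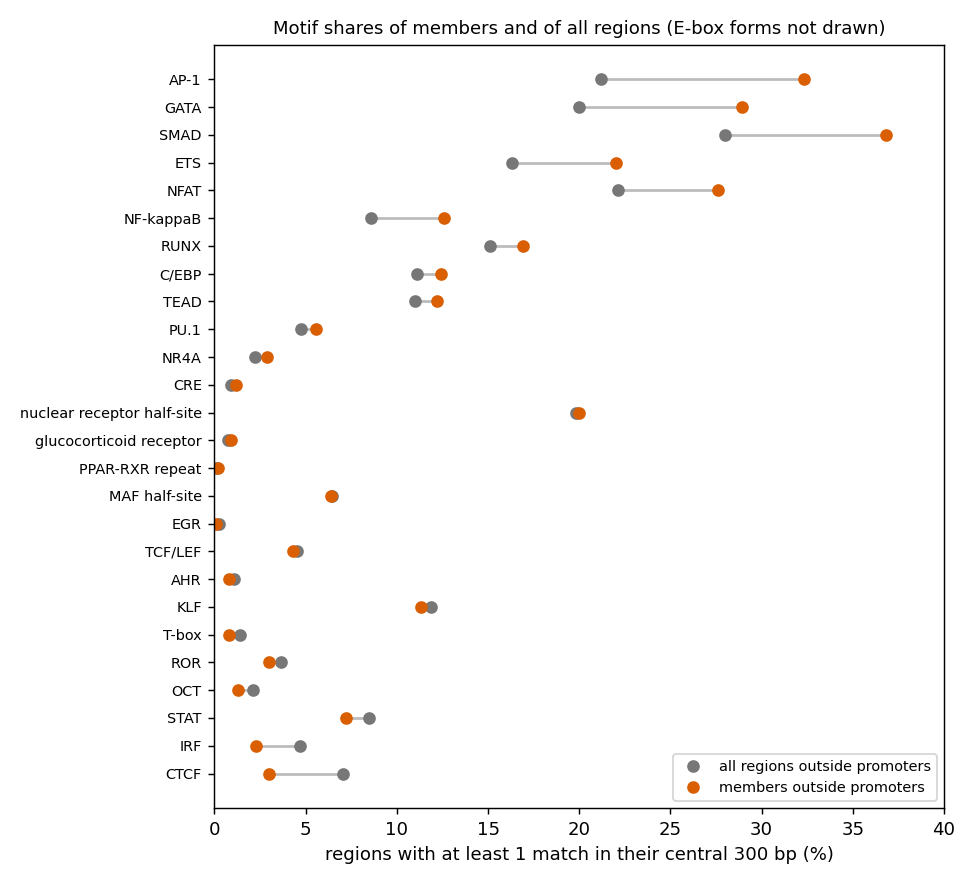
Share of members (orange) and of all regions (grey) outside promoters with at least 1 match in the central 300 bp, for 26 of the 29 motifs searched, ordered by the difference. AP-1, GATA and SMAD show the widest gaps towards members, and CTCF and IRF the widest towards all regions.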

How the data were processed

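ATAC-seq was measured in ILC2s of 5 tissues, 2 libraries each. The authors deposited whole-number read counts per region. Per the submitters' processing notes, the tools were FastQC (0.11.9), Bowtie2 (2.2.9), SAMtools (1.8), MACS2 (2.1.1) and DESeq2, with mm10. By the study's methods, peaks were called per library, kept where both replicates held them, merged over tissues with HOMER and counted with bedtools. Whether reads were shifted for the transposase or duplicates removed is not given in the sources used here. Start coordinates are printed as deposited.

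From the deposited counts, size factors (median of ratios) and log2(value + 1) gave the rule, with a margin of 0.1. The 58 regions without a count were left out of tests. Contrasts within the pair and among the other 3 tissues were tested over 49981 regions with edgeR (4.0.16, R 4.3.3, TMM, quasi-likelihood test, tissue as the only term, all 10 libraries, Benjamini-Hochberg adjustment, threshold 0.05), with DESeq2 (1.42.0) as an alternative. Fits and rule were tested on simulated counts. Total counts of 10282987 to 32797872 limit the precision at weak regions, and intervals cover counting error only.

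Each region took the gene with the nearest start site of curated RefSeq transcripts (GRCm38.p6), and the sequences are from the same genome. Named are the 12 members of largest margin, the 10 genes with most members (ties broken by the largest margin), up to 6 genes of each list by margin, the 5 largest lung and 5 largest pancreas fold changes, and the 6 promoters of largest margin. *Smad3*, *Tnfsf8* and *Ramp1* counts come from the lists. Members and lists were chosen with earlier results of these data known. Libraries were not paired by replicate number in the main fits. The deviations of equal numbers correlated between -0.226 (lung with pancreas) and 0.196 (LI with SI) across tissues. With 2 libraries per tissue this cannot decide whether equal numbers shared a preparation. Alternatives tried covered scaling, margin, pseudocount, filters, depth, GC content, replicates and windows. A region just outside the margin and a member's sequence are not reported here.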

Additional observations from a re-analysis of the deposited data

How the results depend on the processing

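The number of regions kept by the rule was 1021 with TMM, 1239 on total counts, 1570 at a margin of 0, 1013 after thinning and 1089 after removal of the trend with GC content. It was 231 and 38 at margins of 0.5 and 1, which keep fewer regions by construction, and 4282 and 3436 in replicate 1 or 2 alone, which ask less of each region. Leaving out each library gave 1141 to 1647, and it can only add regions by construction. Lung over pancreas was 33 on total counts, 46 in a fit on the 4 libraries compared and 4 among members with a margin of at least 0.5. Pancreas over lung was 9, 52 and 7. The 4 and 7 were 1.73% and 3.03% of those members, beside 1.62% and 4.2% of all regions. Leaving out each library gave 0 to 26 for both. BM over LI was 8 with a log2 fold change above 1. For the 231 members of margin 0.5 or more, BM over LI was 5 (2.16%, beside 12.6% of all regions) and LI over BM 70 (30.3%, beside 18.3%). BM over SI was 56 (24.2%, beside 10.7%), SI over BM 17 (7.36%, beside 15.1%) and LI over SI 81 (35.1%, beside 6.9%). In fits on 4 libraries SI over BM was 52 and LI over SI 123, and on total counts SI over LI was 1. All-region shares are not given for total counts, the fold change cutoff, the replicate block or fits without a library. Those counts do not tell a change in the members from one in all regions. Leaving out each library gave 9 to 26 for BM over LI, 172 to 329 for LI over BM, 137 to 207 for BM over SI, 50 to 80 for SI over BM, 171 to 316 for LI over SI, and 0 to 0 for SI over LI. The share at promoters was 8.31% within 1000 bp on both sides (27.4% of all regions), 7.74% by any overlap (25.8%) and 3.46% at a margin of 0.5. In whole regions the AP-1 share was 38.3% and the GATA share 39.5%, and GATA was 33.3% at a margin of 0.5. Apart from the wider windows, the fewer members and the fewer libraries, the cause was not tested.

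The main fits did not pair libraries by replicate number, and whether equal numbers shared a preparation is not known. With the number as a replicate block, lung over pancreas was 15, pancreas over lung 15, LI over SI 289, LI over BM 287, BM over LI 22, BM over SI 203, SI over BM 81 and SI over LI 0.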
